A study of Mus musculus with 6 samples.

Results

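Of the 54532 genes in the deposited table, 8 make up the PGC-1 coactivators and the factors through which they act on mitochondria, and they were chosen by gene symbol: Ppargc1a, Ppargc1b, Pprc1, Esrra, Esrrg, Nrf1, Gabpa and Tfam. All 8 passed the filter on low counts, so none is missing from the comparison. RNA came from inguinal white adipose tissue (iWAT, the fat pad under the skin of the groin) of aged mice that had been kept in the cold for 7 days. The vehicle group (3 libraries) and the estrogen group (3 libraries) share the cold exposure and differ in treatment, and the design asks what estrogen does to beige adipocytes, the heat-producing fat cells that arise in this depot. The sources used here do not give strain, sex, age in months, housing temperature, the form and dose of estrogen, or whether each library came from a separate animal. The p-values therefore measure the spread between these libraries, which may be technical in part.

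PGC-1 coactivators do not bind DNA themselves. They dock on nuclear receptors and other transcription factors and recruit the machinery that opens chromatin and starts transcription. Ppargc1a encodes PGC-1 alpha, which cold and beta-adrenergic signalling induce in brown and beige fat. Ppargc1b encodes its close relative PGC-1 beta, and Pprc1 encodes PRC, a more distant relative linked to cell growth. Esrra and Esrrg encode the estrogen-related receptors ERR alpha and ERR gamma, orphan receptors that do not bind estrogen in spite of their name. Nrf1 encodes nuclear respiratory factor NRF-1, and Gabpa the DNA-binding subunit of GABP, and both act on promoters of respiratory chain genes. Tfam encodes the protein that packages mitochondrial DNA and starts its transcription.

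Some libraries stand apart in other cell types, and these values bear on what follows. The summed level of 8 adipocyte markers ran from 19390 to 28380 CPM with vehicle and from 28380 to 48730 CPM with estrogen (CPM, counts scaled to a common library size with TMM factors), and 7 of the 8 had a positive fold change. The 8 progenitor and fibroblast markers summed to 11860 to 33220 CPM with vehicle and to 1229 to 8303 CPM with estrogen, and the 8 macrophage markers to 1406 to 2056 CPM and 402 to 1081 CPM. All 16 of these stromal markers had a negative fold change. Skeletal muscle markers summed to 8003 CPM in estrogen replicate 1 and to 36.4 to 116 CPM in the other 5 libraries, with Ckm and Myh4 at 0 counts in 3 of these. B cell markers summed to 151 CPM in estrogen replicate 1 and 99.0 CPM in estrogen replicate 3, against 3.96 to 6.64 CPM elsewhere. T cell markers summed to 55.3 CPM in estrogen replicate 1 and 1.97 to 9.68 CPM elsewhere, and neutrophil markers to 205 CPM in vehicle replicate 1 and 41.7 to 60.9 CPM elsewhere. Epithelial and mammary markers were at or near 0 in every library. In bulk tissue, fewer cells of a type and less RNA per cell cannot be told apart, and the part of these cell type differences in the results on the 8 genes was not tested. Total counts ran from 16046601 to 20736771 per library.

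Levels were first compared between the genes per kilobase of gene length. In the vehicle libraries Esrra stood highest at 30.3 ± 6.01 CPM per kilobase (SD, n = 3), followed by Gabpa at 8.77 ± 1.26, Tfam at 6.47 ± 0.512 and Pprc1 at 4.398 ± 0.477. Below them came Ppargc1b at 3.09 ± 0.306, Ppargc1a at 2.69 ± 0.627, Nrf1 at 1.83 ± 0.174 and Esrrg at 0.676 ± 0.187 CPM per kilobase. Only the ranges of Ppargc1b and Ppargc1a overlapped among neighbours in this order. In the estrogen libraries Esrra again stood highest, at 42.4 ± 6.55 CPM per kilobase, and Esrrg lowest, at 0.600 ± 0.494. Between them the order was Tfam, Gabpa, Ppargc1b, Ppargc1a, Pprc1 and Nrf1. Here the ranges of Tfam and Gabpa, of Gabpa and Ppargc1b, and of Ppargc1a and Pprc1 overlapped. Pprc1 stood above both of its relatives with vehicle, while with estrogen it stood below Ppargc1b and overlapped Ppargc1a. The per-kilobase levels of Esrra and Pprc1 rest on deposited lengths of 2539 and 7516 bases, where the GENCODE M21 exons of these genes cover 4387 and 6284 bases. With the exon lengths the mean of Pprc1 with estrogen was 3.49 CPM per kilobase, above the 3.03 of Ppargc1a, and Esrra was still the highest in both groups.

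Several of these factors are known to act on each other's genes, so the DNA just before the start sites was searched for their recognition letters, which were chosen with the sequences in view. RefSeq promoter windows (GRCm38.p6, 250 bases before to 50 bases after a start site) were found for 7 of the 8 genes, 11 windows in all, and none was found for Ppargc1b. They were searched on both strands for a core of the NRF-1 site (GCATGCG), the GABP or ETS site (CCGGAAGT), the ERR element (TCAAGGTCA), the palindromic estrogen response element and a half-site for CREB, the cAMP-responsive factor (TGACG). The 4 stretches below each hold a match in front of a RefSeq start site of a gene described here. The NRF-1 core matches in front of Esrrg are not shown. Capitals mark the match, all read 5′ to 3′ on the gene's own strand.
Esrra: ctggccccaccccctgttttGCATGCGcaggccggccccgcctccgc
Gabpa: ttggagacactgcactgtacGCATGCG
Tfam: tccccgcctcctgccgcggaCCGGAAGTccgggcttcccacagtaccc
Ppargc1a: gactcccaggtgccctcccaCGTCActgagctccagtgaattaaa
The Esrra stretch lies at chr19:6921816-6921862 (minus strand) with the NRF-1 core at bases 34 to 28 before the start site. The Gabpa stretch lies at chr16:84835097-84835123 (plus strand), and its core ends 1 base before the start site and overlaps a match on the other strand. The Tfam stretch lies at chr10:71238064-71238111 (minus strand) with the GABP site at bases 47 to 40 before the start. The Ppargc1a stretch lies at chr5:51567750-51567794 (minus strand) with the CREB half-site, read from the other strand, at bases 49 to 45. All start sites here are those of RefSeq. The Gabpa and Tfam stretches lie inside the deposited spans of these genes, 84834925 to 84863779 and 71225464 to 71238280.

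The NRF-1 core was found in 3.58% of all 32851 windows, the GABP site in 3.89% and the CREB half-site in 20.8%. The NRF-1 core was in 3 of the 11 windows, from 3 of the 7 genes (Esrra, Gabpa and 1 of the 4 windows of Esrrg). The GABP site was in 1 of the 11 windows, that of Tfam, and the CREB half-site in 1, that of Ppargc1a. The ERR element (0.423% of all windows) and the estrogen response element (0.070%) were in none of the 11 windows. A longer palindromic form of the NRF-1 site, which contains the core and is found in 0.971% of all windows, was in none of the 11 either. A match describes letters only, and the lack of one says nothing of the factor outside these windows.

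The contrast of estrogen over vehicle was fitted to all 15591 tested genes with the quasi-likelihood test of edgeR, and p-values were adjusted over all of them (Benjamini-Hochberg). Of the 8 genes, 0 passed an adjusted p of 0.05 (background 0% of tested genes), while 4 had an unadjusted p under 0.05 (background 20.4%), 3 of them on the higher side (background 9.49%) and 1 on the lower side (background 10.9%). The same 4 genes had estrogen libraries that did not overlap the vehicle libraries, which held for 27.5% of all tested genes. Ppargc1b, Esrra and Tfam lay higher (background 12.8%) and Pprc1 lay lower (background 14.7%). Of the 8 log2 fold changes, 4 were positive (background 50.3%). Which genes stood apart depended on the scaling, since the TMM factors were 1.03 to 1.11 in the vehicle libraries and 0.873 to 1.006 in the estrogen libraries. With library totals only, 4 genes again did not overlap, but 1 lay higher, Ppargc1b, and 3 lay lower, Pprc1, Nrf1 and Gabpa, while Esrra and Tfam overlapped. On that scale the median log2 fold change of all tested genes was 0.17 lower than with TMM, and 5.34% of them lay higher and 25.8% lower without overlap. Without vehicle replicate 2 or without vehicle replicate 3, 2 genes, 1 in each direction, had an unadjusted p under 0.05, and the background was then 9.05% and 15.9%. The median log2 fold change of the 8 genes was 0.01, against 0.0025 over all tested genes. DESeq2 called 1 of the 8, Ppargc1b (background 5.35%), on the higher side (background 2.38%), and 0 on the lower side (background 2.97%), and limma-voom called 0.

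**Figure D1:**
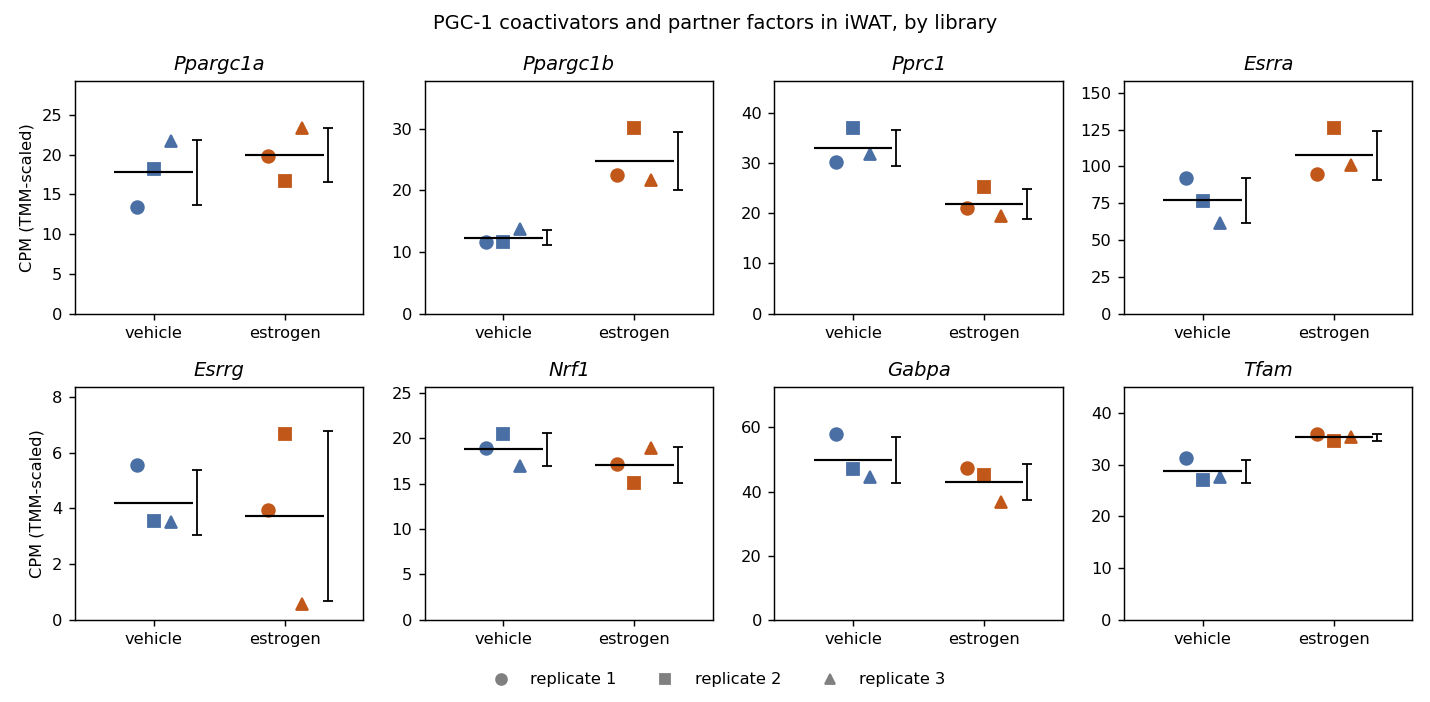
TMM-scaled CPM (y axis, from 0) of the 8 genes in the 3 vehicle (blue) and 3 estrogen (orange) libraries, with symbols for the replicate, a line at the group mean and a bar of 1 SD. On this scale the groups are apart for Ppargc1b, Pprc1, Esrra and Tfam (with library totals only, for Ppargc1b, Pprc1, Nrf1 and Gabpa), and Esrrg in estrogen replicate 3 lies far below every other library.

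The 3 coactivators differed in direction. Ppargc1b (ENSMUSG00000033871, chromosome 18, 61298136 to 61400431, minus strand, mm10) was at 11.6, 11.6 and 13.8 CPM with vehicle and at 22.4, 30.2 and 21.7 CPM with estrogen (here and below in the order of replicates 1, 2 and 3). Every estrogen library lay above every vehicle library, and estrogen replicate 2 was the highest. The log2 fold change was 1.005 ± 0.17 (SE), which is 2.01-fold with a 95% interval of 1.52 to 2.66 (edgeR unadjusted p = 0.000575, adjusted p = 0.207). By unadjusted p it ranked 15 among the 15591 genes, and its adjusted p is the smallest in the table, shared by 874 genes. The rank depended on the setting. It was 297 with library totals only, 294 with the replicate numbers as a block, and 22 to 118 with each library left out in turn. DESeq2 gave an adjusted p of 0.00240 for nearly the same log2 fold change, 1.009. With each library left out in turn the log2 fold change of Ppargc1b ran from 0.84 to 1.09, and with library totals only it was 0.83.

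Pprc1 (ENSMUSG00000055491, chromosome 19, 46044886 to 46072915, plus strand) went the other way. It was at 30.2, 37.1 and 31.8 CPM with vehicle and at 21.1, 25.2 and 19.4 CPM with estrogen, again without overlap. Its log2 fold change was -0.59 ± 0.14 (SE), 1.51-fold lower, with a 95% interval of -0.93 to -0.26 (edgeR unadjusted p = 0.00413, adjusted p = 0.207). In DESeq2 the adjusted p was 0.0504, and with library totals only the log2 fold change was -0.76. Ldb1, on the opposite strand, shares 2.82% of the exonic bases of Pprc1, and the sources used here give no strand setting for the counting.

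Ppargc1a (ENSMUSG00000029167, chromosome 5, 51454250 to 51567726, minus strand), the cold-inducible member, was at 13.4, 18.2 and 21.6 CPM with vehicle and at 19.8, 16.7 and 23.4 CPM with estrogen. The groups overlapped across most of their range. The log2 fold change was 0.17 ± 0.21 (SE), with a 95% interval of -0.33 to 0.67 (edgeR adjusted p = 0.666), so a difference of up to 1.59-fold in the direction of Ppargc1b lies within the interval. Scaled by library totals only, the log2 fold change was -0.016. Counts per gene do not separate the alternative promoters and splice forms of this gene.

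Whether the relatives differed in their response was asked within each library. The log2 ratio of Ppargc1b to Ppargc1a, not scaled for length, was -0.20, -0.64 and -0.65 with vehicle and 0.18, 0.85 and -0.11 with estrogen. All 3 estrogen ratios lay above all 3 vehicle ratios. The group means differed by 0.81, which gave p = 0.1 in a two-sided exact permutation test over the 20 assignments of libraries, the smallest p this design allows (0.2 adjusted over the 2 ratios tested). Without estrogen replicate 2 the difference was 0.54.

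Per kilobase of gene length, Ppargc1b made up 32.5, 27.5 and 31.4% of the summed level of the 3 coactivators with vehicle and 49.2, 56.2 and 47.0% with estrogen. Pprc1 made up 44.8, 46.5 and 38.6% with vehicle and 24.6, 24.9 and 22.3% with estrogen. The share of Ppargc1a was 26.2 ± 3.64% with vehicle and 25.2 ± 5.98% with estrogen (SD, n = 3). Pprc1 was the most abundant of the 3 per kilobase in each vehicle library, and Ppargc1b was the most abundant in each estrogen library. The summed level was 10.2 ± 1.06 CPM per kilobase with vehicle and 12.2 ± 1.12 with estrogen. These shares restate the values of single genes and were not tested.

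**Figure D2:**
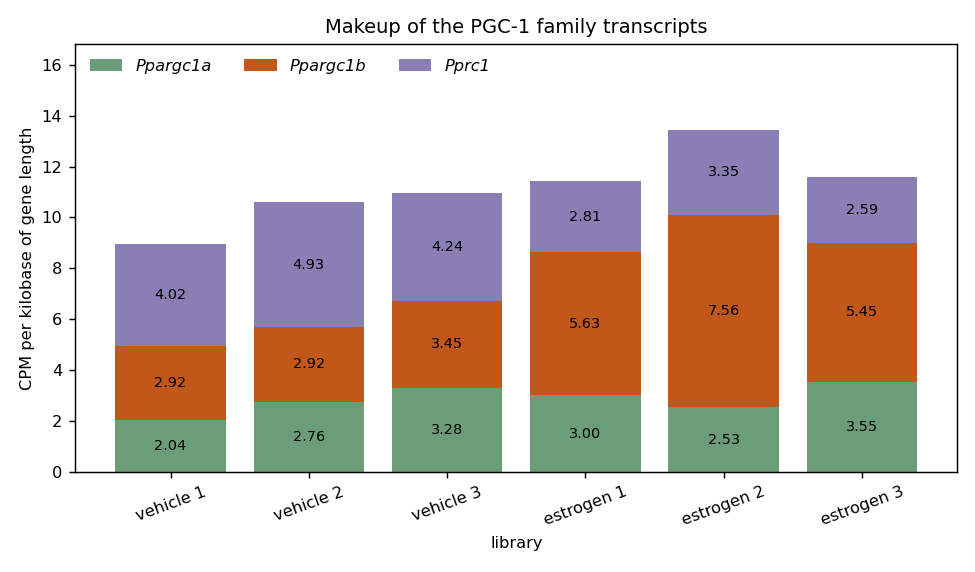
Stacked levels of Ppargc1a, Ppargc1b and Pprc1 in CPM per kilobase of gene length (y axis) in each of the 6 libraries (x axis), with each value printed in its bar. Ppargc1b goes from 2.92 to 3.45 in the vehicle libraries to 5.45 to 7.56 in the estrogen libraries, while Pprc1 goes from 4.02 to 4.93 down to 2.59 to 3.35.

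Among the receptors, Esrra (ENSMUSG00000024955, chromosome 19, 6910977 to 6921813, minus strand), the main partner of the coactivators on oxidative genes, was at 92.3, 76.7 and 61.7 CPM with vehicle and at 95.2, 126 and 101 CPM with estrogen. The groups did not overlap with TMM scaling, but vehicle replicate 1 came within 3 CPM of estrogen replicate 1. Scaled by library totals only, vehicle replicate 1, at 95.2 CPM, lay above estrogen replicate 3, at 88.1 CPM, and the log2 fold change was 0.32. On the log2 scale the difference was 0.48 ± 0.19 (SE), 1.40-fold, with a 95% interval of 0.04 to 0.92 (edgeR unadjusted p = 0.0352, adjusted p = 0.222). It was 0.35 without vehicle replicate 3 and 0.63 without vehicle replicate 1. Trmt112 and Mir6990 share 3.74% of its annotated exonic bases.

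Esrrg (ENSMUSG00000026610, chromosome 1, 187608791 to 188214885, plus strand), the receptor found in tissues rich in mitochondria such as heart, muscle and brown fat, had no such group pattern. It was at 5.54, 3.54 and 3.51 CPM with vehicle and at 3.94, 6.68 and 0.557 CPM with estrogen. Estrogen replicate 2 was the highest of the 6 libraries and estrogen replicate 3 the lowest, where 8 counts stood against 70 to 109 in the other 5. Its log2 fold change was -0.17 ± 0.71 (SE), with a 95% interval of -1.83 to 1.49 (edgeR adjusted p = 0.909). Leaving out estrogen replicate 3 turned it to 0.34, and leaving out vehicle replicate 1 turned it to 0.08. With estrogen replicate 2 left out it was -0.87, so its direction rests on single libraries. The log2 ratio of Esrra to Esrrg ran from 4.03 to 4.395 with vehicle and was 4.56, 4.22 and 7.25 with estrogen (difference of means 1.17, two-sided exact permutation p = 0.2, 0.2 adjusted over the 2 ratios), and without estrogen replicate 3 the difference was 0.22.

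With TMM scaling, Esrrg stood in the same order over the libraries as 3 of the 8 thermogenic markers. Ucp1, the uncoupling protein that makes heat, was at 907, 589 and 333 CPM with vehicle and at 696, 1754 and 10.2 CPM with estrogen. On this scale the 6 libraries stood in the same order for Esrrg, Ucp1, Cox7a1 and Cox8b, the last 2 being cytochrome oxidase subunits typical of brown fat and muscle. For Esrrg the order rests on a near tie, 3.54 CPM in vehicle replicate 2 and 3.51 CPM in vehicle replicate 3. With library totals only, Esrrg was at 3.69 and 3.91 CPM in them, so their order turned. Over the 6 libraries the log2 CPM of Esrrg had a Pearson r of 0.99 with Ucp1, and r was 0.91 without estrogen replicate 3 and 0.78 without the 2 libraries farthest from the median of Esrrg. The values for Cox8b were 0.91, 0.95 and 0.95. These are descriptions over libraries that share tissue and depth, made after the values were seen. In contrast, with TMM scaling Ppargc1a was highest in estrogen replicate 3, at 23.4 CPM, where Ucp1 and Esrrg were lowest. With library totals only, Ppargc1a was highest in vehicle replicate 3, at 24.1 CPM, and stood at 20.4 CPM in estrogen replicate 3.

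Over all 6 libraries, other thermogenic markers followed less closely. The r with Esrrg was 0.70 for Ppara, 0.62 for Cidea, 0.19 for Elovl3, 0.18 for Kcnk3 and -0.04 for Dio2. Without estrogen replicate 3 it was 0.87, 0.88, 0.80, 0.88 and 0.20 in the same order. Without the 2 libraries farthest from the median of Esrrg it was 0.69, 0.69, 0.58, 0.68 and -0.32. The r of these markers thus depended on which libraries were kept. By rank over all 6 libraries, Kcnk3 followed Esrrg no more closely than Dio2 (Spearman rho 0.37 for each). Dio2, the enzyme that activates thyroid hormone, was at 19.6 CPM in estrogen replicate 3, within the range of the other libraries. Elovl3, a fatty acid elongase of thermogenic fat, was at 63.6 CPM there, against 15.1 to 167 CPM elsewhere. The summed level of the 8 thermogenic markers was 781 to 1746 CPM with vehicle and 497 to 3319 CPM with estrogen, so the groups overlapped. Skeletal muscle also expresses Esrrg, and estrogen replicate 1, with muscle markers at 8003 CPM, had Esrrg at 3.94 CPM, between vehicle replicates 1 and 2. The part of muscle in the Esrrg level of that library was not tested.

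**Figure D3:**
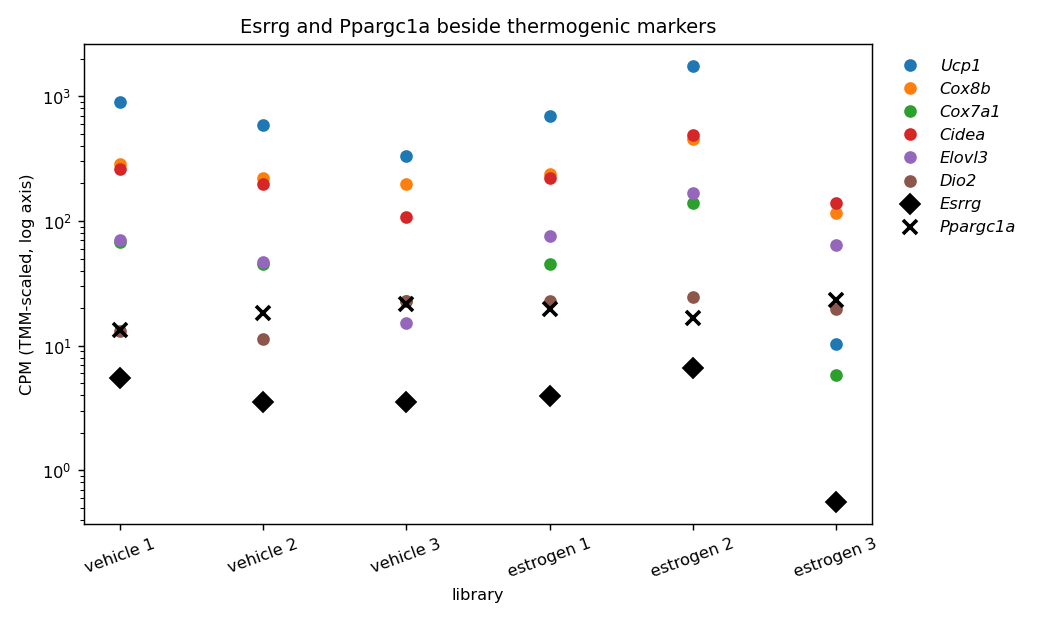
CPM on a log axis (y) of Esrrg (black diamonds), Ppargc1a (black crosses) and 6 thermogenic markers (coloured points) in each of the 6 libraries (x axis). Esrrg and Ucp1 are both lowest, at 0.557 and 10.2 CPM, in estrogen replicate 3, where Ppargc1a stands at 23.4 CPM.

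The transcription factors that act beside the receptors overlapped between the groups with TMM scaling, but not with library totals only. Nrf1 (ENSMUSG00000058440, chromosome 6, 30047988 to 30153458, plus strand) was at 18.9, 20.5 and 16.9 CPM with vehicle and at 17.2, 15.1 and 18.9 CPM with estrogen, a log2 fold change of -0.14 ± 0.15 (SE; 95% interval -0.48 to 0.20, edgeR adjusted p = 0.600). Gabpa (ENSMUSG00000008976, chromosome 16, 84834925 to 84863779, plus strand) was at 58.0, 47.1 and 44.5 CPM with vehicle and at 47.3, 45.3 and 36.6 CPM with estrogen, a log2 fold change of -0.21 ± 0.15 (SE; 95% interval -0.57 to 0.15, edgeR adjusted p = 0.451). With each library left out in turn the log2 fold change ran from -0.22 (without estrogen replicate 3) to -0.06 (without estrogen replicate 2) for Nrf1 and from -0.29 (without estrogen replicate 1) to -0.09 (without vehicle replicate 1) for Gabpa. Scaled by library totals only, Nrf1 was at 18.8 to 21.3 CPM with vehicle and 14.4 to 17.3 CPM with estrogen (log2 fold change -0.31), and Gabpa at 48.97 to 59.9 CPM and 32.0 to 47.6 CPM (-0.37). Neither interval of the TMM-scaled fit reaches a 2-fold difference: that of Nrf1 runs from 0.717 to 1.15 of the vehicle level and that of Gabpa from 0.673 to 1.11. Atp5j, which starts on the opposite strand next to Gabpa, shares 6.98% of its exonic bases.

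Tfam (ENSMUSG00000003923, chromosome 10, 71225464 to 71238280, minus strand) was at 31.3, 27.1 and 27.7 CPM with vehicle and at 36.0, 34.5 and 35.3 CPM with estrogen. With TMM scaling the groups did not overlap, and the coefficient of variation was 2.08% with estrogen and 7.91% with vehicle. They overlapped with library totals only, at 28.2 to 32.3 CPM with vehicle and 30.8 to 36.2 CPM with estrogen, and the log2 fold change was 0.13. The log2 fold change was 0.30 ± 0.10 (SE), 1.23-fold, with a 95% interval of 0.05 to 0.54 (edgeR unadjusted p = 0.0237, adjusted p = 0.209). Of the 4 genes whose groups were apart with TMM scaling, Tfam had the smallest difference.

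**Figure D4:**
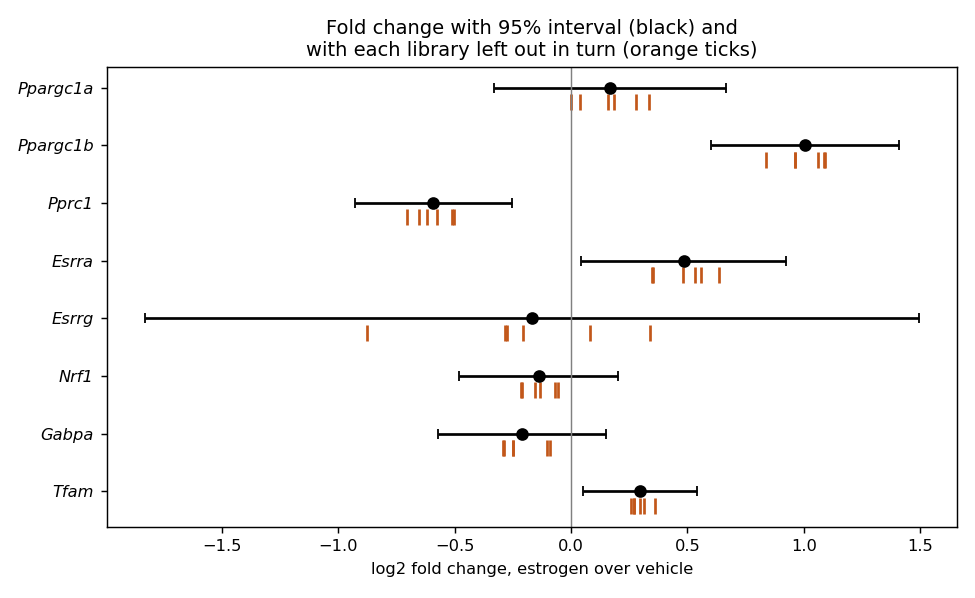
Log2 fold change of estrogen over vehicle (x axis) for each of the 8 genes (y axis), with the 95% interval of the edgeR fit in black and the values with each library left out in turn as orange ticks. The ticks of Ppargc1b stay between 0.84 and 1.09 and those of Pprc1 between -0.70 and -0.50, while those of Esrrg run from -0.87 to 0.34.

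The levels were also set against the adipocytes, since adipocyte markers differed between the groups. This was chosen after seeing the data. The mean log2 level of the 8 adipocyte markers was 0.34 higher with estrogen. Relative to it, the groups stayed apart for Ppargc1b, with a log2 difference of 0.64, and for Pprc1, at -0.94. Nrf1 came apart as well, at -0.48. This scale lowers the difference of mean log2 CPM of every gene by 0.34. That difference is not the edgeR log2 fold change. For Esrrg it was -0.68 before this scaling, where edgeR gave -0.17. The share of all tested genes that lie apart on it was not determined, so these separations cannot be set against a background. Esrra, at 0.15, and Tfam, at -0.04, overlapped between the groups on this scale, as did Ppargc1a at -0.16, Gabpa at -0.55 and Esrrg at -1.02. Without estrogen replicate 1, the library with muscle and lymphocyte markers, the log2 fold changes by edgeR were 1.06 for Ppargc1b, -0.57 for Pprc1, 0.56 for Esrra and 0.27 for Tfam.

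The genes around this circuit were counted in 5 lists, and none of their members passed the adjusted threshold in edgeR. Of 25 nuclear genes described as targets of ERR alpha, NRF-1 or GABP, 25 had a positive log2 fold change, with a median of 0.50 (0.0025 over all tested genes), and 15 had an unadjusted p under 0.05 on the higher side and 0 on the lower (background 9.49% and 10.9%). DESeq2 called 5 of them higher (background 2.38%). With library totals only 24 of the 25 were positive, with a median of 0.34 (-0.17 over all tested genes). On that scale 5 had an unadjusted p under 0.05, all higher. Over all tested genes 22.9% did so in either direction, and the share on the higher side alone was not determined. Without overlap, 5.34% of all tested genes lay higher and 25.8% lower on that scale. Ndufv1, a subunit of complex I, was at 247, 211 and 207 CPM with vehicle and at 301, 429 and 384 CPM with estrogen (log2 fold change 0.74 ± 0.17). Mfn2, which fuses mitochondria, had a log2 fold change of 0.53 ± 0.13, Pdha1, of the pyruvate dehydrogenase, 0.73 ± 0.19, and Ndufs1, of complex I, 0.55 ± 0.15. The list is not independent of the mitochondrial genes already known to lie higher in these libraries. Its median ran from 0.36 to 0.63 with each library left out in turn.

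Genes that maintain and transcribe mitochondrial DNA, beside Tfam, lay nearer to 0. Of 23, 16 were positive with a median of 0.10, and 3 had an unadjusted p under 0.05, all on the higher side (background 9.49%). On library totals only, 11 were positive and the median was -0.07 (-0.17 over all tested genes). The 3 genes with TMM scaling were Tfb2m, the partner of Tfam at mitochondrial promoters, at 0.49 ± 0.14, the protease gene Lonp1 at 0.44 ± 0.14, and Tefm, an elongation factor of mitochondrial transcription, at 0.48 ± 0.16. Tfb2m was at 32.4, 29.6 and 27.2 CPM with vehicle and at 38.4, 38.0 and 48.5 CPM with estrogen. Polrmt, the mitochondrial RNA polymerase, was at 34.99 ± 2.25 CPM and 40.9 ± 8.35 CPM, and Polg, the mitochondrial DNA polymerase, at 59.5 ± 1.599 CPM and 61.6 ± 4.58 CPM (SD, n = 3). Next by unadjusted p was Elac2, which trims mitochondrial tRNAs, at 0.33 ± 0.14. The median of this list was 0.03 with estrogen replicate 2 left out and 0.19 with vehicle replicate 1 left out.

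Of 31 regulators and partners of the coactivators, 4 had an unadjusted p under 0.05 on the higher side and 3 on the lower side, with a median of 0.09. These counts lie near the background of 9.49% and 10.9%, and with library totals only the median was -0.08 (-0.17 over all tested genes). Creb1, which carries the cAMP signal to the Ppargc1a promoter, was at 41.0, 37.1 and 36.0 CPM with vehicle and at 28.6, 25.1 and 24.1 CPM with estrogen, a log2 fold change of -0.55 ± 0.12 (edgeR adjusted p = 0.207, DESeq2 adjusted p = 0.0303). Its coactivator gene Crtc3 had -0.49 ± 0.18, and Sik1, a kinase that keeps CREB coactivators out of the nucleus, 0.60 ± 0.20. The related genes Crtc1 and Crtc2 overlapped between the groups, at -0.22 ± 0.21 and 0.22 ± 0.20. Lpin1, a phosphatidate phosphatase that also acts as a partner of PGC-1 alpha, was at 338, 258 and 290 CPM with vehicle and at 388, 516 and 525 CPM with estrogen, a log2 fold change of 0.69 ± 0.18 (DESeq2 adjusted p = 0.0224). Perm1, named after its regulation by PGC-1 and ERR in muscle, was at 6.61, 3.997 and 3.30 CPM with vehicle and at 12.0, 11.9 and 0.905 CPM with estrogen, so it was lowest in the same library as Esrrg. Camk2a, at 26.1 CPM in estrogen replicate 1 and 0.905 to 4.10 CPM elsewhere, was high in the library with muscle markers. Without that library the median of this list was -0.025, and without estrogen replicate 3 it was 0.04.

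Of the 14 nuclear receptors that these coactivators bind, 12 could be tested, and 2 had an unadjusted p under 0.05, both on the higher side (background 9.49%, or 20.4% in either direction), with a median of 0.14. The median was -0.04 with library totals only (-0.17 over all tested genes). Esr1, estrogen receptor alpha, was at 46.9, 45.9 and 42.7 CPM with vehicle and at 63.5, 50.2 and 94.5 CPM with estrogen, and Nr1h3, the oxysterol receptor LXR alpha, had a log2 fold change of 0.47 ± 0.17. The next by unadjusted p were Rora at 0.56 ± 0.33 and Esrrb, the third estrogen-related receptor, at 1.19 ± 0.75, which stood at 0.0868 to 0.917 CPM and thus close to the floor of 3 counts (0.13 to 0.209 CPM). Without vehicle replicate 2 the median of this list was 0.09, and without vehicle replicate 3 it was 0.24. Esr2, estrogen receptor beta, had 1 count in the vehicle libraries and 0 with estrogen, and Hnf4a had 1 count with vehicle and 4 with estrogen, all 4 in estrogen replicate 3, so neither could be tested. All 6 partners of GABP and NRF-1 had a negative log2 fold change, with a median of -0.31, and 1 of them, Dynll1, had an unadjusted p under 0.05 (background 10.9% lower). All 6 were again negative with library totals only, with a median of -0.47. Dynll1, a dynein light chain that binds NRF-1, was at 111, 96.7 and 78.2 CPM with vehicle and at 55.2, 67.6 and 40.5 CPM with estrogen (-0.81 ± 0.22, DESeq2 adjusted p = 0.0384). Sp1 had -0.29 ± 0.13, and the GABP beta subunit genes Gabpb2 and Gabpb1 had -0.33 ± 0.19 and -0.25 ± 0.17.

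**Figure D5:**
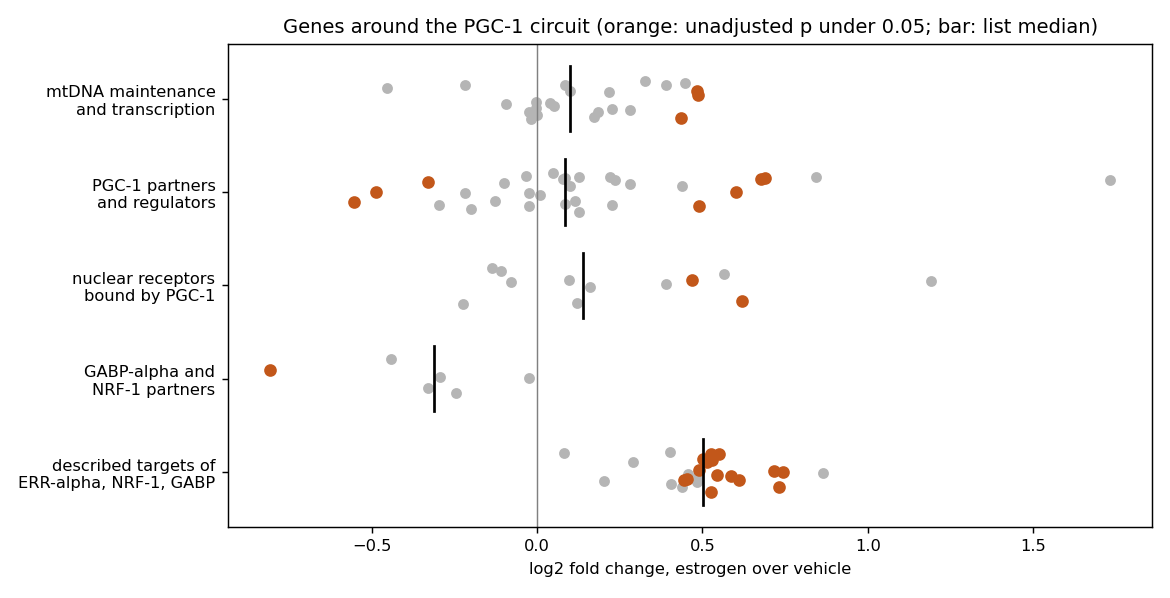
Log2 fold change of estrogen over vehicle (x axis) for each tested gene of the 5 lists around the circuit (y axis), with genes at an unadjusted p under 0.05 in orange and the list median as a black bar. With TMM scaling all 25 described targets lie to the right of 0 (24 with library totals only), and all 6 partners of GABP and NRF-1 to its left.

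The genes whose pattern was most like that of a coactivator were sought among 12130 genes whose log2 CPM averaged 1 or more, by Pearson correlation of log2 CPM over the 6 libraries. For Ppargc1b they were Ighg2b (r = 0.99), an immunoglobulin gene of plasma cells, Dis3l (0.99), an exosome ribonuclease, Llgl2 (0.99), a polarity gene, and Tyw1 (0.99), a tRNA-modifying enzyme. Ighg2b went from 0.815 to 25.6 CPM between the group means, while Dis3l went from 25.04 to 30.1 CPM. For Ppargc1a they were the splicing factor gene Srrm2 (0.99), Sema6a (0.99), H2-M9 (0.99) and Gstt3 (0.99). The search was repeated for Esrrg after its values were seen, and there it gave Idh2 (0.995), a mitochondrial isocitrate dehydrogenase, the fatty acid binding protein gene Fabp3 (0.99), the lactate carrier gene Slc16a1 (0.99) and Deptor (0.99), with r from 0.94 to 0.98 without estrogen replicate 3. These were picked as the highest of 12130 correlations over 6 libraries and are descriptions only.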

How the data were processed

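Raw counts without normalization were deposited by the authors in 1 table of 54532 Ensembl genes with symbols, mm10 coordinates and gene lengths. Per the submitters' processing notes, HISAT2 and featureCounts were used, and the sources used here give no versions, strand setting or handling of multiply mapped reads. The gene length in the deposited table (other values, in bases) served only to scale levels per kilobase. Groups came from the sample titles.

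Counts were filtered with edgeR's filterByExpr (15591 genes kept), scaled with TMM factors and tested with the quasi-likelihood F test (edgeR 4.0.16, R 4.3.3), with no replicate block, over all tested genes. DESeq2 1.42.0 and limma-voom (limma 3.58.1) were alternatives, beside RLE factors, library totals only, no filter, robust dispersions, fits that leave out 1 library and a replicate block. Standard errors come from the F statistic, log2 CPM uses a prior count of 2, and the scripts were tested on simulated data. Total counts of 16046601 to 20736771 per library put 3 counts, taken as the floor, at 0.13 to 0.209 CPM, a limit of counting error only. Replicates of a group differed by more than sampling noise (chi-square per degree of freedom 41.7 to 88.6).

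The 8 genes and the lists were chosen with earlier results of these data known. All 8 were named whatever their values, with up to 4 list members of smallest unadjusted p, and the 4 genes most correlated with Ppargc1b and with Ppargc1a. Polrmt, Polg, Perm1, Camk2a, Crtc1, Crtc2, Esr2 and Hnf4a were named after their values were seen.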

Additional observations from a re-analysis of the deposited data

How the results depend on the processing

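The threshold of 0.05 was passed by none of the 8 genes in any edgeR or limma-voom setting run. DESeq2 called 817 genes (364 higher and 453 lower, against 0 by edgeR, where 3185 had an unadjusted p under 0.05) and 1 of the 8, Ppargc1b (log2 fold change 1.009). Leaving out each library gave 0 to 13 called genes, the 13 without estrogen replicate 2. Of the 8 genes, 2 to 4 had an unadjusted p under 0.05 in these fits (background 9.05% to 20.2%). The log2 fold change of Esrrg then ran from -0.87 to 0.34, with the sign turned without vehicle replicate 1 (0.08) and without estrogen replicate 3 (0.34). The cause was not tested. No other of the 8 genes changed sign when a library was left out, and Ppargc1a came closest to 0 without vehicle replicate 1, at 0.00073.

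Relative to the adipocyte markers, Ppargc1a was at -0.16 and Tfam at -0.045, on the other side of 0. Ppargc1b was at 0.64, Pprc1 at -0.94, Esrra at 0.15, Esrrg at -1.02, Nrf1 at -0.48 and Gabpa at -0.55. These are differences of mean log2 CPM, which for Esrrg was -0.68 before this scaling, against -0.17 by edgeR. The list of coactivator partners had a median of -0.025 without estrogen replicate 1. The fit with library totals only was an alternative added after seeing the data. There 2 of the 8 genes had an unadjusted p under 0.05 (background 22.9%), and Ppargc1a was at -0.016. On that scale 3 list medians turned sign, to -0.068 for mitochondrial DNA maintenance, -0.084 for coactivator partners and -0.039 for nuclear receptors. The median of all tested genes was then -0.167, so the 3 list medians still lay above it.

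The replicate block, by the numbers of the titles, gave adjusted p of 0.0873 for Ppargc1b and 0.0950 for Pprc1 and called 0 genes. Same-numbered libraries had correlated deviations of -0.12, 0.16 and 0.29, and not every one is over 0.1, so the numbers were not taken to pair the libraries. The labels number some libraries differently in their titles and descriptions. At 8 counts in estrogen replicate 3, Esrrg is the value most limited by depth.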
